A study of Mus musculus with 7 samples.

Results

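The olfactory receptor genes (symbols beginning with Olfr) and the vomeronasal receptor genes (Vmn1r and Vmn2r) were examined in HPC7, a mouse hematopoietic progenitor cell line, by bulk ATAC-seq, in which a transposase cuts accessible DNA. The members were the windows of 1 kb on either side of the annotated start of every protein-coding GENCODE M21 gene with such a symbol, on the mm10 genome. Annotated starts were not checked against measured transcript starts, so a window can miss the promoter in use. There were 1466 such windows of 21938 protein-coding windows in all, namely 1135 of Olfr, 209 of Vmn1r and 122 of Vmn2r genes. The rule used the gene symbols and no measured value, but it was chosen with earlier results of these data known. All 7 libraries belonged to 1 group, cells of the same line grown in medium with mouse stem cell factor. Per the methods, they came from separate cultures. They are named here by their labelled replicate numbers (HPC7-1, HPC7-2 and HPC7-4 to HPC7-8). The line had been made by expression of the LIM homeobox gene Lhx2 in hematopoietic progenitors derived from embryonic stem cells, so all libraries share that origin and 1 cell line stands for the progenitor state.

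Olfr genes encode the odorant receptors of the main olfactory epithelium, which couple to the G protein alpha subunit Gnal and to the cyclase Adcy3. Vmn1r and Vmn2r genes encode the pheromone receptors of the vomeronasal organ, which signal through the channel Trpc2. An olfactory neuron expresses a single allele of a single Olfr gene, chosen among arrays of neighbouring receptor genes that are packed in heterochromatin in that neuron, and the transcription factors Lhx2 and Ebf and the cofactor Ldb1 take part in that choice. In blood cells these genes are regarded as silent. Class I Olfr genes form 1 array on chromosome 7 around the beta-globin genes, and the other Olfr genes are class II.

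The files were lists of MACS2 peaks, here called open chromatin regions (OCRs), with a fold enrichment at each summit over the background of the library, each taken in reads plus 1. The lists held 84593 to 132852 OCRs. Within a library, every fold enrichment under 50 was a whole multiple of a smallest unit (to within 0.02), from which a background of 4.44 reads (HPC7-2) to 20.4 reads (HPC7-1) and the reads at each summit were computed. The weakest OCR listed had a fold enrichment of 1.68 in HPC7-1 and of 2.13 to 2.44 in the other libraries, so a window without an OCR can still hold a weaker signal. No more than 0.301% of the OCRs of any library pair had the same coordinates. Of all protein-coding windows, 51.6% held an OCR in all 7 libraries. Of 10 progenitor marker genes, 9 did so, and Gata2, with none at its gene start, had one in all 7 at another annotated transcript start. Of 6 olfactory sensory neuron markers, Adcy3, Omp and Gng13 had an OCR in all 7 libraries and Gnal, Cnga2 and Rtp1 had none, and neither of the vomeronasal markers Trpc2 and Gnao1 had one.

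The sequences under the receptor OCRs are shown first, from the GRCm38 (mm10) genome of RefSeq. They are stretches found in OCRs of all 7 libraries, picked because they lie outside annotated UTRs and because they include the highest fold enrichments at Olfr genes (Olfr417 and Olfr646) and stretches with a match to a blood transcription factor motif (Olfr202, Olfr432, Olfr156 and Olfr557). All are written on the + strand, 5′ to 3′, with motif matches in capitals. The Olfr417 stretch is chr1:174364922-174365121, the 200 bases just before the gene start and inside its OCR. The others are the 201 bases around the median summit: chr7:104104012-104104212 for Olfr646, chr16:59287665-59287865 for Olfr202, chr1:174048407-174048607 for Olfr432, chr4:43824093-43824293 for Olfr156 and chr7:102695508-102695708 for Olfr557. The Olfr646 stretch lies in an intron of Olfr643 and the others are intergenic.
Olfr417: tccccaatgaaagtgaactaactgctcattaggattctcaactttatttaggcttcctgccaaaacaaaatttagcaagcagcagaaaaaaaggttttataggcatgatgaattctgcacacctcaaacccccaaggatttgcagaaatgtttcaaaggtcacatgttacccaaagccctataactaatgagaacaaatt
Olfr646: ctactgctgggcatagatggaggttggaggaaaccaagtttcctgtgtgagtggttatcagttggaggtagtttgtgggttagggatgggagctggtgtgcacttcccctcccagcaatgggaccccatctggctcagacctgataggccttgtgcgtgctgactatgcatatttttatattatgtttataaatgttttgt
Olfr202: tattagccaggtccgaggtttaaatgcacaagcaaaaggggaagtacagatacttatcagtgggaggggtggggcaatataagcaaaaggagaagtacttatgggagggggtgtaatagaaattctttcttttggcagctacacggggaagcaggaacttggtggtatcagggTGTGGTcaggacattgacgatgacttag
Olfr432: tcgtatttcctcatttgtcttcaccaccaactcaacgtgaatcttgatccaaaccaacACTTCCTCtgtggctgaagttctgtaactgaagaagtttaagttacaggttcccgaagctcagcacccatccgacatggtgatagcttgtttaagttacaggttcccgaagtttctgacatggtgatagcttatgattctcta
Olfr156: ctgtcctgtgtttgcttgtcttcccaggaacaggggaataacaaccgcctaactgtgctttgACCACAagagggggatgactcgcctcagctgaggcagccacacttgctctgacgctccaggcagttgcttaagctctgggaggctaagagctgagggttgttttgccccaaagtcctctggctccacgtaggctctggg
Olfr557: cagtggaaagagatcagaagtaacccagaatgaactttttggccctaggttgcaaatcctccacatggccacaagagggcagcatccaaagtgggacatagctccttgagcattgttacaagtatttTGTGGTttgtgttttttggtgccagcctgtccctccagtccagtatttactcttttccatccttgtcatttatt
The capitals mark a Runx match in Olfr202, Olfr156 and Olfr557 and an ETS match in Olfr432, and the stretches of Olfr417 and Olfr646 held none of the motifs searched. Only the motifs defined below were searched, and any others are unmarked. The CTCF motif, which the paper reported as enriched in its low-intensity peaks found in all cell clusters, was not searched.

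The first comparison asked how often the start of a receptor gene was accessible in the progenitor line, beside the starts of other protein-coding genes. Few were. The number of receptor windows with an OCR was lowest at 18 in HPC7-6, had a median of 27 and was highest at 31 in HPC7-1, that is 1.23%, 1.84% and 2.11% of the 1466 windows. Of the 20472 other protein-coding windows, 56.5% to 59.9% held an OCR in a library. The share was 1.70% ± 0.33 for receptors and 57.7% ± 1.20 for the others (SD, n = 7), and the difference was -56.1 ± 0.92 percentage points and negative in each of the 7 libraries (exact two-sided sign-flip permutation test over libraries, p = 0.0156, adjusted over 9 such tests p = 0.0201). This p is the smallest that 7 libraries allow. Over all libraries, 34 receptor windows (2.32%) held an OCR in at least 1 library, where 57.1% of all protein-coding windows did, and 1432 held none in any. Only 16 (1.09%) held an OCR in all 7 libraries, where 51.6% of all protein-coding windows did.

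Receptor windows are poor in CpG, and many promoters open across tissues lie in CpG islands, so the same comparison was made with other windows of a CpG observed/expected ratio under 0.4. All but 2 of the receptor windows (Vmn1r4 and Olfr212) were under that ratio, with a median of 0.109 against 0.504 for all other windows, and the 8038 other windows of low CpG had a median of 0.206. Of these, 23.3% to 30.3% held an OCR in a library, with a mean of 26.0% ± 2.33. The receptors lay 24.4 ± 2.04 percentage points lower, again in 7 of 7 libraries (exact sign-flip test, p = 0.0156, adjusted p = 0.0201). Median GC content was 36.5% in receptor windows and 46.6% in the other windows of low CpG, so the groups still differed in base composition, whose part was not tested. The receptor windows with an OCR had a median CpG ratio of 0.140 and a median GC content of 41.5%, and those without one 0.108 and 36.4%.

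The receptor families differed in the same libraries. Olfr windows held an OCR in 2.04% ± 0.40 of cases, and Vmn1r and Vmn2r windows together in 0.518% ± 0.147, a difference of 1.52 ± 0.33 points, with Olfr higher in each of the 7 libraries (exact sign-flip test, p = 0.0156, adjusted p = 0.0201). The size of the difference depended on the window: it was 2.75 ± 0.86 points with 3 kb on either side and 2.94 ± 0.72 points with the starts of all transcripts (exact test, p = 0.0156 for each). The Vmn share rested on 2 windows. Vmn1r4 was the only one of 209 Vmn1r windows with an OCR, and it had one in all 7 libraries. Vmn2r114 was the only one of 122 Vmn2r windows with an OCR, which was listed in 5 libraries and missing in HPC7-5 and HPC7-6. Windows that matched another receptor window over at least 1000 bases at 95% identity or more, where reads are hard to place, made up 31.6% of Vmn1r, 29.5% of Vmn2r and 2.47% of Olfr windows. Without those windows the family difference was 1.29 ± 0.29 points (exact test, p = 0.0156), 33 of 1336 receptor windows held an OCR, and all 16 found in every library were kept.

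**Figure D1:**
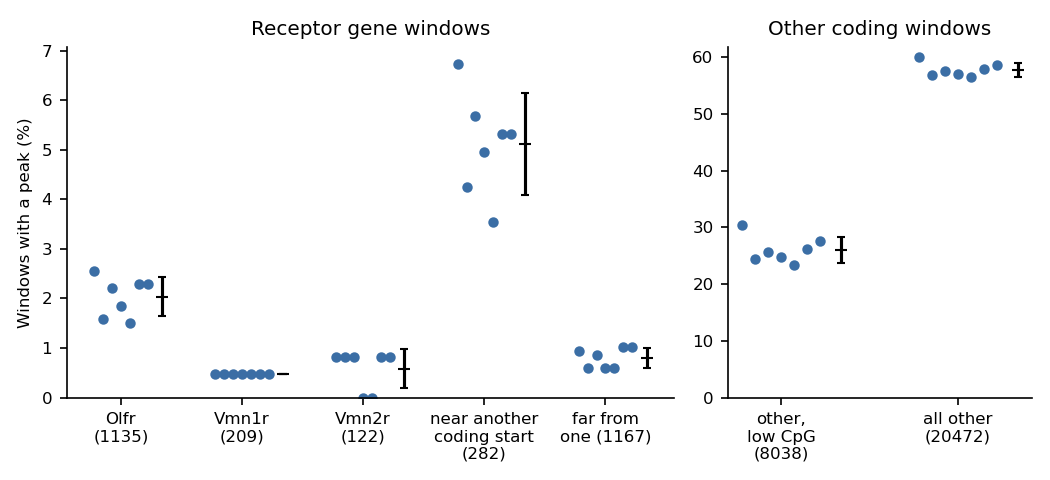
Percent of windows with an OCR in each of the 7 libraries (points) with mean and SD (bars), at left for Olfr, Vmn1r and Vmn2r genes and for receptor genes near to or far from the start of another coding gene, and at right for other coding genes, with different axes from 0. The receptor families lie under 3% in every library, and all other coding windows lie between 56.5% and 59.9%.

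With windows of 1 kb, class I and class II Olfr genes did not differ beyond the spread between libraries. The 129 class I genes, whose starts lie between 102.48 and 105.37 Mb of chromosome 7, held an OCR in 1.99% ± 0.41 of windows and class II genes in 2.04% ± 0.40, a difference of -0.05 ± 0.18 points (exact sign-flip test, p = 0.469). The class I windows with an OCR were those of Olfr646, Olfr557 and Olfr548-ps1. The direction of this difference depended on the window: with 500 bp on either side of the start class I was higher by 0.37 points and with 3 kb by 2.81 points, while with all annotated transcript starts it was lower by 0.70 points, each with p = 0.0156 by the exact test. With windows of 1 kb, a library had an OCR in only 2 or 3 class I windows. These p-values measure the spread between libraries and not between genes.

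The level of accessibility at the few open receptor windows was also low beside that of other open coding windows. The median fold enrichment over receptor windows with an OCR ran from 5.52 to 6.52 across libraries, against 55.5 to 92.7 for the other coding windows with an OCR, without overlap. On the log10 scale the difference was -1.10 ± 0.07, negative in each library (exact sign-flip test, p = 0.0156, adjusted p = 0.0201). Against the other windows of low CpG with an OCR, whose median ran from 16.5 to 23.1, the difference was -0.50 ± 0.03, also in 7 of 7 libraries (exact test, p = 0.0156), in a comparison added after the data were seen. Of the 34 receptor windows with any OCR, 16 (47.1%) had one in all 7 libraries, and the same share was 67.8% for the other windows of low CpG and 90.6% for all other windows, as a description with no test. The median receptor OCR held 34 to 49 reads at its summit in the libraries of lower background and 117 reads in HPC7-1, the library with the highest background. Of the 4 windows found in 1 library only, 3 were found in HPC7-1.

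The windows with an OCR in all 7 libraries covered a wide range of fold enrichment. Of the 16, 3 stood above the rest, with mean values of 65.4 to 92.3, then 5 lay between 10 and 20 and the other 8 lay below 10, down to 4.53. The 18 windows found in 1 to 6 libraries had mean values of 2.20 to 5.22.

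**Figure D2:**
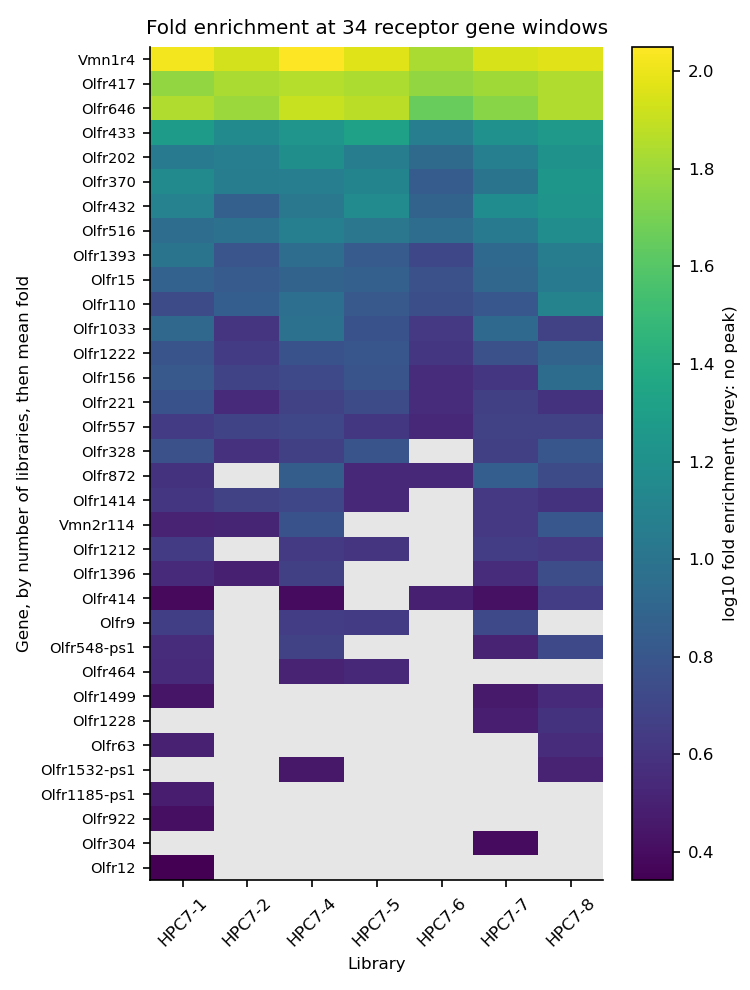
Fold enrichment (log10 colour scale) of the highest OCR in each of the 34 receptor windows with an OCR (rows) in each library (columns), ordered by the number of libraries and then by mean fold enrichment, with grey for no OCR. The upper 16 rows are filled in all 7 libraries, Vmn1r4, Olfr417 and Olfr646 are the brightest, and the grey cells lie in rows of low fold enrichment.

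Vmn1r4, a type 1 vomeronasal receptor gene starting at position 56924015 of chromosome 6 (+ strand), had the highest value of all receptor windows. Its fold enrichment was lowest at 68.4 in HPC7-6, had a median of 92.6 and was highest at 112 in HPC7-4. The start of Nt5c3, a cytosolic nucleotidase gene, lies 83 bp away in the opposite orientation, and the summit fell in the UTR of Nt5c3. The window had a CpG ratio of 0.755, the highest of all receptor windows. An OCR there cannot be assigned to 1 of the 2 genes.

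Olfr417, an odorant receptor gene starting at position 174365122 of chromosome 1 (+ strand), had no start of another gene in its window. The fold enrichment was lowest at 59.1, had a median of 67.6 and was highest at 72.4, which is 66.0 ± 5.23 (SD, n = 7), with 367 to 1272 reads at the summit. This value lay within the library range of the median of all other open coding windows. The summit lay 80 to 107 bp downstream of the start in every library, in the UTR of Olfr417, and the OCR spanned 1464 bp at the median. The nearest other coding gene, Mptx1, started 34604 bp away and had no OCR in its window.

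Olfr646, a class I odorant receptor gene starting at position 104104873 of chromosome 7 (+ strand), had a fold enrichment of 44.7 in HPC7-6, a median of 69.9 and 81.1 in HPC7-4. Its summit lay 740 to 789 bp upstream of the start in an intron of its neighbour Olfr643. In the sequence above, this stretch of 47.3% GC held none of the 5 motifs. Its nearest other coding gene, Ubqln5, 25.0 kb away, had no OCR in its window.

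The next windows formed a middle group. Olfr433 (16.8 ± 3.07) and Olfr432 (12.1 ± 3.67) lie in the same array on chromosome 1 as Olfr417. The OCR of Olfr433 peaked 300 bp downstream of the start in its UTR, and the median summit of Olfr432 lay 698 bp upstream, with the ETS match printed above nearby. The Olfr432 summits ran from 705 bp upstream to 285 bp downstream between libraries. Olfr414, in the same array, had an OCR in 5 libraries with a mean of 3.04. The nearest other coding gene of Olfr433 and Olfr432, the interferon-inducible Ifi205, had an OCR in all 7 libraries with a fold enrichment of 7.06. This array of 13 receptor genes thus held 4 windows with an OCR, and chromosome 1 held 6 of its 28 receptor windows (21.4%) with one, against 2.32% of all receptor windows, 1.51% of the 398 on chromosome 7 and 1.70% of the 294 on chromosome 2, with 1 of 5 on chromosome 8 and no more than 5.56% on any other.

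Olfr202 on chromosome 16 had a fold enrichment of 12.5 ± 2.70, with its summit 972 bp upstream of the start, near the edge of the window, in the sequence shown above. Olfr370 on chromosome 8 had 12.2 ± 3.38, with its summit 145 bp downstream in its UTR. Olfr516 on chromosome 7 had 10.9 ± 2.12, with its summit 822 bp upstream in intergenic sequence. Thus 4 of the 8 windows with a mean above 10 had their median summit more than 500 bp upstream of the gene start, and the other 4 within 500 bp of it.

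Olfr1393 had a fold enrichment of 8.15 ± 2.22, Olfr15 of 7.78 ± 1.68 and Olfr110 of 7.61 ± 2.55. The summits of Olfr1393 and Olfr15 lay 132 bp and 10 bp downstream of the start, in the UTR of each gene. Olfr15 lies 16.4 kb from Zfp174 and Olfr1393 lies 34.1 kb from Mgat1, a glycosyltransferase gene, and both neighbours had OCRs in all 7 libraries, of 114 and 215 in fold enrichment. Olfr110 lies 8.92 kb from H2-M2, a class Ib histocompatibility gene without an OCR in its window. The remaining windows found in all libraries were those of Olfr1033, Olfr1222, Olfr156, Olfr221 and Olfr557, with means from 6.46 down to 4.53.

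Vmn2r114, on chromosome 17, was the only Vmn2r gene with an OCR. Its fold enrichment was lowest at 3.18, had a median of 4.22 and was highest at 6.41 over 5 libraries. The summit lay 993 bp upstream of the start at the median, near the edge of the window.

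The positions of the OCRs were spread over the windows. Of the 34, 21 had their median summit downstream of the start and 13 upstream, and 19 lay within 500 bp. By the annotation at the summit, 12 lay in an intron, 11 were intergenic, 8 lay in a UTR and 3 in coding sequence. How often other stretches of this length in the receptor arrays held an OCR was not counted. These OCRs were thus not shown to belong to the gene starts. With windows of 500 bp the counts stayed within 1.5 times those given, and with windows of 3 kb 87 receptor genes had an OCR in any library and 40 in all. With the starts of all annotated transcripts in place of the gene start, 60 had one in any library and 27 in all.

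**Figure D3:**
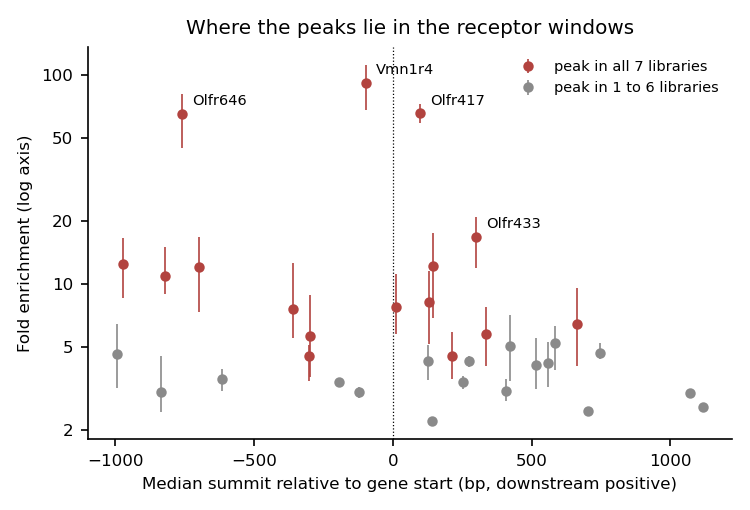
Mean fold enrichment (log axis) against the position of the median summit relative to the gene start (bp) for the 34 receptor windows with an OCR, with bars from the lowest to the highest library, in red for windows found in all 7 libraries. The OCRs lie on both sides of the start, and the 3 highest means are 65.4 to 92.3.

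Motif matches were counted within 100 bp of the summit on both strands, as letters and not as bound sites. For Runx factors, which act in blood progenitors, the letters searched were TGTGGT. For the Gata factors of the erythroid and mast cell lineages they were AGATAA. For the ETS family, which includes the myeloid regulator Spi1, they were GAGGAAGT. For AP-1, a dimer of Fos and Jun proteins, they were TGACTCA. For Ebf, a factor of olfactory neurons and B cells, they were TCCC followed after any 2 bases by GGGA. No motif contains another. Of the 16 receptor windows found in all libraries, 6 held a Runx match (37.5%), 3 a Gata match (18.8%), 2 an ETS match (12.5%), 3 an AP-1 match (18.8%) and none an Ebf match. Among the 1731 other windows of low CpG found in all libraries, the shares were 20.97% for Runx, 10.6% for Gata, 6.99% for ETS, 6.07% for AP-1 and 0.751% for Ebf. In stretches of the same length centred on the gene start, 12.3% of all 1466 receptor genes and 10.0% of all protein-coding genes held a Runx match, and 15.7% and 5.37% held a Gata match. An ETS match was held by 4.23% and 2.28%, an AP-1 match by 4.23% and 2.80%, and an Ebf match by 1.5% and 0.606%. With 16 windows, each match changes the receptor share by several points, and no test was made.

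The next comparison asked whether open receptor windows lay beside other genes. Of 17 receptor windows that held the start of a gene with another name, 1 had an OCR (Vmn1r4), which is 5.88% in every library, against 1.65% ± 0.33 of those without one. The difference of 4.24 ± 0.33 points had p = 0.0156 in the exact sign-flip test (adjusted p = 0.0201), but it rested on that 1 window. Only 3 receptor windows held the start of another protein-coding gene, and counted that way the difference was 31.7 ± 0.33 points; with windows of 3 kb it was 11.9 points. Among the windows without such a start, the 282 within 50 kb of another coding start held an OCR in 5.12% ± 1.02 of cases and the 1167 farther away in 0.808% ± 0.203. The lowest near share was 3.55% in HPC7-6 and the highest far share 1.03%, and near windows lay 4.31 ± 0.89 points higher, with no library the other way (exact sign-flip test, p = 0.0156, adjusted p = 0.0201). The difference was 7.79 ± 1.42 points with windows of 3 kb and 2.70 ± 0.57 points with near taken as within 100 kb (exact test, p = 0.0156 for each).

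The distance classes showed the same order over all libraries, apart from the second class. An OCR in at least 1 library was found in 4 of 21 receptor windows up to 10 kb from another coding start (19.0%), in 2 of 58 from 10 to 20 kb (3.45%), in 13 of 203 from 20 to 50 kb (6.40%), in 5 of 262 from 50 to 100 kb (1.91%), in 4 of 349 from 100 to 200 kb (1.15%) and in 5 of 556 beyond 200 kb (0.899%). The other windows of low CpG fell from 45.3% to 10.5% over the same classes and lay above the receptors in each. Beyond 50 kb, 0.808% ± 0.203 of receptor windows and 15.5% ± 1.36 of the other windows of low CpG held an OCR, a difference of -14.7 ± 1.19 points in 7 of 7 libraries (exact test, p = 0.0156, added after the data were seen).

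**Figure D4:**
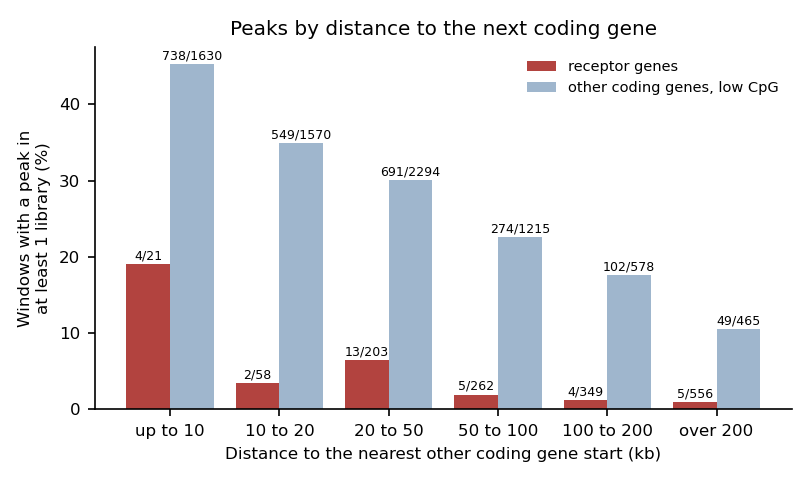
Percent of windows with an OCR in at least 1 library by the distance to the nearest start of another coding gene (kb), for receptor genes without another start in their window (red) and for other coding genes of low CpG (blue), with the counts above the bars. The red bars run from 19.0% in the nearest class to 0.899% in the farthest and stay under the blue ones.

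The windows were also counted by the state of that nearest gene. Near receptor windows whose nearest other coding gene had an OCR in all 7 libraries held one in 9.88% ± 1.47 of 94 cases, and those whose neighbour had OCRs in fewer libraries or none in 2.74% ± 0.94 of 188 cases. The library ranges were 7.45% to 11.7% and 1.60% to 4.26%, and this difference was not tested. Over 50 kb away the shares were 1.32% ± 0.43 of 369 windows and 0.573% ± 0.142 of 798 windows. Of the 34 windows with an OCR, 19 had such an open neighbour, where 32.1% of all receptor windows did.

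Most receptor genes lay in arrays, and these were examined between the genes as well. With at least 5 receptor genes and neighbouring starts at most 500 kb apart, 46 clusters held 1411 receptor genes, and 55 genes lay outside. Within clusters 30 receptor windows (2.13%) held an OCR in at least 1 library, and outside 4 did (7.27%). Outside the receptor windows, the clusters covered 51.2 Mb and held 534 to 788 OCR summits per library, which is 12.8 ± 1.93 per Mb, against 41.8 ± 6.80 per Mb on the rest of the same chromosomes. The density was 3.26 ± 0.20 times lower in the clusters, a log2 difference of -1.70 ± 0.09 in 7 of 7 libraries (exact sign-flip test, p = 0.0156, adjusted p = 0.0201). The ratio depended on how the clusters were drawn, at 5.54 ± 0.39 with neighbouring starts at most 200 kb apart and 2.78 ± 0.15 with at most 1 Mb. Outside 3 kb around the starts of other genes it was 3.57 ± 0.26, and in sequence outside every gene 2.95 ± 0.20. The log10 fold enrichment of the OCRs that were there differed by 0.01 ± 0.02 from that elsewhere (exact test, p = 0.188). The sign of this difference depended on the setting: it was -0.03 with clusters of neighbours at most 200 kb apart (exact test, p = 0.0156) and -0.02 outside 3 kb of other starts (exact test, p = 0.0312).

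The distance from each receptor start to the nearest summit, inside or outside the arrays, was measured as well. Its median over receptor genes was 86.2 ± 21.4 kb (SD, n = 7 libraries), against 7.57 ± 1.48 kb for other genes of low CpG and 0.580 ± 0.044 kb for all other coding genes. It was 81.0 ± 20.7 kb for Olfr, 82.4 ± 24.7 kb for Vmn2r and 125 ± 18.7 kb for Vmn1r genes. Within each of the 7 libraries the Vmn1r median was the highest of the 3 families, a difference that was not tested, although the ranges over libraries overlapped. Windows with a near-identical copy, 31.6% of Vmn1r, 29.5% of Vmn2r and 2.47% of Olfr windows, were kept here, and their part was not tested.

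Merged over the libraries, 897 OCRs lay in the clusters outside receptor windows, and 418 of them (46.6%) were found in all 7 libraries, close to the 46.4% on the rest of the same chromosomes. Of the 897, 231 lay within 3 kb of the start of another gene, 204 in the body of another gene, 110 in the body of a receptor gene and 352 between genes. Those near other starts that were found in all libraries had a median fold enrichment of 53.4, and those between genes 9.58.

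The 5 OCRs of highest mean fold enrichment inside the clusters belonged to other genes. They were chr17:20944026-20947475 at Ppp2r1a, a scaffold subunit of protein phosphatase 2A (327 ± 58.9), chr19:11964311-11967291 at Osbp, an oxysterol-binding protein gene (266 ± 57.1), and chr14:52102695-52105670 at Hnrnpc, an RNA-binding protein gene (256 ± 53.3). The others were chr17:17836990-17839866 over Spaca6 near Mir125a (256 ± 50.5) and chr14:50930041-50932556 at Pnp, a purine salvage enzyme gene (238 ± 44.4). The nearest receptor starts were 25.6 to 143 kb away. Picked after its values were seen, the highest OCR within the body of a receptor gene was chr2:89195991-89197258 in the UTR of Olfr1226, at 149 ± 24.4, which lay 3.39 kb from the start of that gene and so outside the window.

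The clusters differed widely. Among those of 10 or more receptor genes, the highest density of summits, receptor windows included, was 80.8 ± 12 per Mb in Olfr56 to Olfr1380 on chromosome 11, an array of 19 receptor genes around the interferon-inducible GTPase genes Tgtp2 and Ifi47 and around Mgat1. Next came Olfr433 to Olfr220 on chromosome 1, with 62.3 ± 8.64 per Mb, which holds the windows of Olfr417, Olfr432 and Olfr433. Then followed 3 arrays with zinc finger or histone genes between the receptors: Vmn1r55 to Olfr1350 (29.2 ± 4.42) and Vmn1r72 to Vmn1r89 (29.0 ± 3.12) on chromosome 7 and Olfr1370 to Vmn1r223 (28.5 ± 3.85) on chromosome 13. In these last 3 none of the 20, 22 and 49 receptor windows held an OCR in any library, although 8, 14 and 29 other coding windows inside them held one in all 7.

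At the other end, Olfr338 to Olfr368 on chromosome 2 had 0.150 ± 0.396 summits per Mb, with at most 1 per library over 28 receptor genes. Olfr1275 to Olfr1318 on chromosome 2, with 39 receptor genes, had 0.465 ± 0.580 per Mb, with 0 to 1 per library. Vmn1r91 to Vmn1r183 on chromosome 7, with 65 receptor genes in 3.96 Mb, had 0.469 ± 0.227 per Mb, with 1 to 3 per library. That array also held the longest stretch without an OCR in any library, 2675 kb with 43 receptor genes. Of its receptor windows 83.1% had a near-identical copy, whose part in its low count was not tested, while no window of the chromosome 2 arrays had one. Neither of the 2 smaller clusters Vmn1r32 to Vmn1r39 and Olfr1378 to Olfr1375 held an OCR in any library, and 27 of the 46 clusters held none in a receptor window.

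Clusters with and without the open promoter of another coding gene were also counted apart. The 22 clusters with such a promoter in all 7 libraries had 18.5 ± 2.53 summits per Mb, and the 24 without one had 4.0 ± 1.01 per Mb, counts that include the promoters themselves. The share of receptor windows with an OCR in at least 1 library was 2.36% of 763 in the former and 1.85% of 648 in the latter, as a description with no test.

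**Figure D5:**
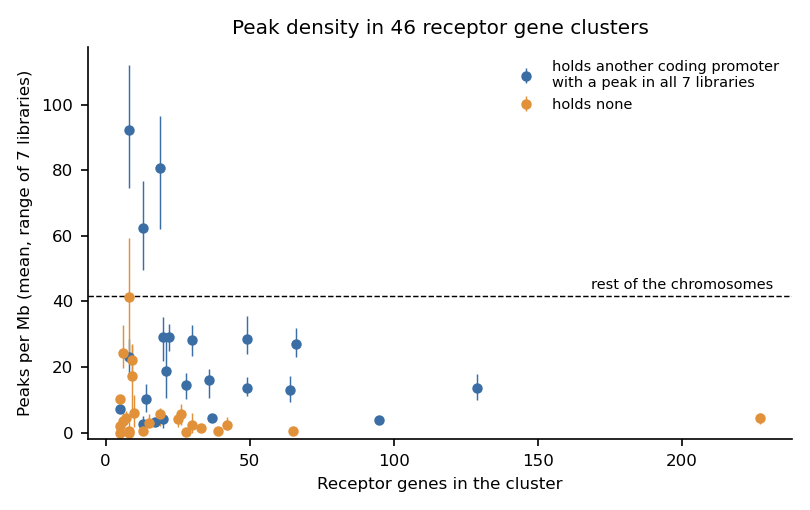
Summits per Mb (mean, with bars from the lowest to the highest library) against the number of receptor genes for each of the 46 clusters, in blue where the cluster holds another coding promoter with an OCR in all 7 libraries, with the density on the rest of the chromosomes as a dashed line. Of the clusters of 10 or more genes, only the ones at 80.8 and 62.3 per Mb lie above the line at 41.8.

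The class I array of 129 Olfr genes encloses the beta-globin genes (Hbb), which are expressed in red cells. The receptor genes on either side, Olfr68 and Olfr67 on the lower and Olfr66 and Olfr64 on the higher side, had no OCR in any library, at 20.7 to 41.3 kb from the globin genes. Between Olfr67 and Olfr66, over 94.4 kb, each library listed 2 to 4 OCRs. The highest was chr7:103860863-103861376, intergenic, with a fold enrichment of 19.3 ± 5.07 in 7 libraries, 7.90 kb from the start of the embryonic gene Hbb-y on its upstream side, where the globin locus control region is known to lie. The T-cell receptor alpha variable segments (Trav) on chromosome 14 are also bordered by receptor genes. Olfr1511 and Olfr1510 before them, Olfr1509, Olfr1508 and Olfr1507 among them and Olfr49 beyond them had no OCR in any library, while 50 OCRs between Olfr1510 and Olfr49 were found in all 7, the highest at Dad1, an oligosaccharyltransferase subunit gene (159 ± 26.4).

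The other genes of olfactory signalling fell on both sides. Of 15 transduction genes, 6 had an OCR in all 7 libraries, Slc24a4 had one in 4 libraries and 8 had none, beside 51.6% of all protein-coding windows with one in all 7. Gnai2, an inhibitory G protein subunit gene also used in blood cells (177 ± 34), Ric8b, a chaperone of G protein alpha subunits (132 ± 29.4), and Gnb1, a G protein beta subunit gene (50.6 ± 8.43), lay above Adcy3 (18.2 ± 4.31), Omp, the olfactory marker protein (4.50 ± 1.17), and Gng13, a G protein gamma subunit gene (3.36 ± 0.47). The cyclic nucleotide gated channel genes Cnga2 and Cnga4 and the channel genes Ano2 and Trpc2 had none. Cngb1 had none at its gene start but one in all 7 libraries at another transcript start. None of the receptor trafficking genes Rtp1, Rtp2 and Reep1 had an OCR.

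Of 13 genes known from receptor gene choice, 9 had an OCR in all 7 libraries (51.6% of all protein-coding windows did). They were the chromatin and stress response genes Eif2ak3 (237 ± 47.3), Lbr (207 ± 38.5), Atf5 (204 ± 42.0), Cbx5 (159 ± 24.8), Ehmt2 (63.6 ± 15.1) and Kdm1a (48.8 ± 13.3), the cofactor Ldb1 (84.6 ± 22.1), and, at low levels, the transcription factor genes Ebf4 (6.18 ± 1.52) and Lhx2 (6.0 ± 0.98). Emx2, Ebf1, Ebf2 and Ebf3 had none.

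Other sensory and tissue-restricted families were counted in the same way. An OCR in at least 1 library was found in 1 of 15 Taar windows (Taar4, trace amine receptors), 4 of 38 taste receptor windows, 1 of 7 Fpr windows (Fpr1), 4 of 110 keratin and keratin-associated windows and 3 of 42 beta-defensin windows, beside 57.1% of all protein-coding windows. Tas1r1, an umami taste receptor subunit gene, was the 1 sensory gene among these with an OCR in all 7 libraries, at 57.0 ± 12.7. Whether these windows also held the start of another gene was not examined, so that OCR was not assigned to Tas1r1. The mean share per library was 0.952% ± 2.52 for Taar, 7.52% ± 2.81 for taste receptor, 10.2% ± 6.97 for Fpr, 2.34% ± 1.16 for keratin and 3.06% ± 1.16 for beta-defensin genes, beside 1.70% ± 0.33 for the receptors, and these were not tested against each other.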

How the data were processed

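Bulk ATAC-seq peak lists of 7 HPC7 libraries were analysed. Per the study's methods, adapter trimming was done with Cutadapt, alignment to mm10 with BWA-mem, and peak calling with MACS2. Each library had its own peak list. Versions, options, mapping quality filters and duplicate handling are not given in the sources used here. The deposited columns are a fold enrichment (a ratio of summit reads to background reads, with 1 added to both), -log10 p and -log10 q values, a score and the summit offset.

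The members and lists were chosen with earlier results of these data known. Genes were taken from GENCODE M21 and sequence from GRCm38.p6. No peak ran past a chromosome end. A window held a peak when they overlapped by at least 1 bp, and its value was the highest fold enrichment. Overlaps were checked on 7 simulated lists against bedtools 2.31.1, with 0 windows that differed. Near-identical windows were found with blastn 2.17.0. Libraries were compared by exact two-sided sign-flip tests with Benjamini-Hochberg adjustment over 9 tests (numpy 2.4.6, Python 3.11.15). Library depth differed, and read totals were not used here. The p-values measure the spread between cultures of 1 line.

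Named genes were the 10 windows of highest mean fold enrichment found in all libraries with no other start, up to 6 with such a start, up to 3 Vmn1r and Vmn2r windows of widest support, receptors beside Hbb and Trav, the 5 densest and 3 sparsest clusters of 10 or more genes, the 5 highest OCRs between receptor windows and the fixed lists. Alternatives were windows of 500 bp and 3 kb, a -log10 q of at least 5, the 84593 strongest peaks of every list, summits only, all transcript starts, no near-identical windows, each library left out, each peak-name prefix alone and other distance, CpG and cluster limits.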

Additional observations from a re-analysis of the deposited data

Results flagged for a closer look

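The fold enrichment at Olfr15 was 11.2 in HPC7-8, apart from the next highest library at 8.01, a gap large for the range of the other libraries by Dixon's test. Of 25 measures examined this way, this was the 1 picked out, and chance picks out about 1 in 20. The OCR was present in all 7 libraries.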

How the results depend on the processing

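Of 183 recomputed values, 126 tested differences kept their direction and their side of the threshold, 28 counts stayed within 1.5 times the count given, and 18 values from libraries of 1 name prefix, which have no test, stayed within 1 SD. All 77 that left out 1 library are among them. With windows of 3 kb, 87 receptor genes had an OCR in any library and 40 in all, and with the starts of all transcripts 60 and 27. The class I difference was 0.37 points with 500 bp, 2.81 points with 3 kb, 0.096 points (exact test, p = 0.531) with the same number of peaks from every library and -0.70 points with all transcript starts, and the cause was not tested. The fold enrichment difference between clusters and the rest was -0.032 (log10) with neighbours at most 200 kb apart, -0.018 outside 3 kb of other starts and -0.012 (exact test, p = 0.188) in sequence outside every gene, and the cause was not tested. In the 3 libraries whose peak names begin with VD and the 4 whose names begin with EtOH, terms the labels do not explain, the receptor minus other difference in share was -56.3 and -55.8 points. No paired analysis was possible because the libraries form 1 group, so no replicate number is shared between groups. All differences were taken within a library. Without near-identical windows the counts were 33 in any library and 16 in all. A fold enrichment under that of the weakest listed OCR is not seen, and the part of library depth in this was not tested. Reads that map to several near-identical receptor genes may be lost, and how the authors treated them is not given in the sources used here.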
